A study of Mus musculus with 4 samples.

Results

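The terminal complement genes C6, C8a, C8b, C8g and C9 were followed in liver RNA of obese mice fed conjugated linoleic acid. They were chosen by the signs of their measured log ratios, because some keep 1 sign on all 4 arrays and others change it with the dyes, so their values are given as a description with no test. All 5 genes were present with 1 probe each, among 16504 genes with 1 symbol on arrays of 22393 features. The animals, mice with polygenic obesity, received CLA (conjugated linoleic acid, a group of linoleic acid isomers) or, as controls, LA (ordinary linoleic acid), and livers were taken at day 14 of the trial. The labels give no line, sex or age of the mice and do not name the CLA isomers. RNA was pooled over 5 or 4 samples, and each array compared a CLA pool with an LA pool in the dyes Cy5 and Cy3. Cy5 marked the CLA pool on arrays 1 and 2, and Cy3 marked it on arrays 3 and 4. Whether arrays reuse pools is not labelled, so the spread between arrays may be technical. A ratio holds no level, so the liver label could not be checked against marker levels, and fewer cells of a type cannot be told apart from less RNA per cell.

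Complement is a cascade of plasma proteins, made largely by hepatocytes, that marks and attacks microbes. Cleavage of C5 starts the terminal pathway, in which C5b binds C6 and then C7, C8 and many copies of C9 to form a pore, the membrane attack complex. C8 is built from an alpha, a beta and a gamma chain, which are encoded by C8a, C8b and C8g. C6, the alpha and beta chains and C9 share the MACPF fold of pore-forming proteins, whereas the gamma chain is a lipocalin, a small carrier-type protein.

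Which dye stands on top of the ratio is not known here. Values are therefore given as deposited, in log2 units on the assumption that the deposited base is 10, and they carry no CLA direction of their own. Each gene was split into a sign-keeping part, the mean of all arrays, and a sign-changing part, which is the mean of arrays 1 and 2 minus the mean of arrays 3 and 4, divided by 2. If the values are Cy5 over Cy3, the sign-changing part is the log2 ratio of CLA over LA, and if they were already turned to CLA over LA, the sign-keeping part is. A ratio the other way round would reverse both.

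The 5 genes fell into 3 patterns. C6 and C8b were negative on all 4 arrays, at means of -0.44 and -0.55. C8g and C9 were negative on both arrays with CLA in Cy5 and positive on both with CLA in Cy3, with sign-changing parts of -0.69 and -0.68. C8a had mixed signs. Of all genes, 4.91% were negative on all 4 arrays, 21.6% were negative with CLA in Cy5 and positive with CLA in Cy3, and 47.5% had mixed signs; the members were picked on these signs, so nothing is read from their counts.

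Promoter sequences are shown for the pair with 1 sign and the pair that changed sign, the sign classes by which these genes were picked. They are the 250 bases before the annotated start, 5′ to 3′ on the strand of the gene, from RefSeq on GRCm38.p6. Capitals mark matches to the motifs described after them. C8g has 2 annotated starts.
C6, chr15:4726960-4727209, plus strand: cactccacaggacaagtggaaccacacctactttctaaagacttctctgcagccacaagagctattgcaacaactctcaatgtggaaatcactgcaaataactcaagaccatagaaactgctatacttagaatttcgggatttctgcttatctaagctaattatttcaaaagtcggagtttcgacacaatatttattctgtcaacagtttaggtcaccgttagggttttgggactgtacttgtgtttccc
C8b, chr4:104766067-104766316, plus strand: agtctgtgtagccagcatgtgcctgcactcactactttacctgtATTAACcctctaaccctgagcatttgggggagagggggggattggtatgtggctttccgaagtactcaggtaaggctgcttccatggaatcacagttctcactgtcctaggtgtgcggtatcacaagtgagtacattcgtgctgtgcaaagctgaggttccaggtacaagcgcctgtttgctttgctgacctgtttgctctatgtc
C8g, chr2:25501720-25501969, minus strand: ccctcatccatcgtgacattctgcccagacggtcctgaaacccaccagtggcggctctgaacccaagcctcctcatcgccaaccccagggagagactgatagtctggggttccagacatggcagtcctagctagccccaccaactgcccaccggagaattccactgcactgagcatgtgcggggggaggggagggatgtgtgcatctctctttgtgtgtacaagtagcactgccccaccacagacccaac
C8g, chr2:25500507-25500756, minus strand: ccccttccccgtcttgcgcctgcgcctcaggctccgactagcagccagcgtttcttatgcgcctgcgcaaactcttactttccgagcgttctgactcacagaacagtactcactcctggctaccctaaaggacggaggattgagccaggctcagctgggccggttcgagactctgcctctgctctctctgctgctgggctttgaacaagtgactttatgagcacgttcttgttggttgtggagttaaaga
C9, chr15:6445096-6445345, plus strand: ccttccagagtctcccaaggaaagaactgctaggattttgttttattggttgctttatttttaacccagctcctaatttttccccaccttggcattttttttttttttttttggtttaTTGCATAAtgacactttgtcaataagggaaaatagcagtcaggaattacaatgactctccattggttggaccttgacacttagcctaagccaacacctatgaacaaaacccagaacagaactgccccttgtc

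Searched on both strands were TTGCNNAA for C/EBP, TTCNNNGAA for STAT, GTTAAT for an HNF1 half-site, CAAAGTCCA for HNF4 and TATAAA for the TATA box. These are names of factors and elements known from liver and acute phase promoters. The C9 promoter held a C/EBP match beginning 132 bases before the start, and 9.56% of 32851 promoters held one. The C8b promoter held an HNF1 half-site match beginning 206 bases before the start, and C8a held one at 107 bases, against 6.43% of promoters. C8a, whose promoter is not printed, also held a STAT match at 228 bases (7.02% of promoters). No match to these 5 motifs was found in the C6 promoter or in either C8g promoter, and none of the 6 member promoters held the HNF4 or TATA letters (0.384% and 12.4% of promoters). These matches describe letters only. The C8g promoters were 55.6% and 59.2% G and C, against 40.0% for C6, 38.8% for C9 and a median of 52.4% over all promoters.

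C6, the protein that captures C5b, had the steadiest values. It was at -0.44, -0.47, -0.40 and -0.47 on arrays 1 to 4. Every value lay within 0.071 of the others, a range that 99.8% of all genes exceeded; the median range over all genes was 0.767. Its sign-keeping part was -0.44 ± 0.03 (SD, n = 4 arrays), a 1.36-fold difference between the channels, and its sign-changing part was -0.01. The orientation of the dyes made a difference of -0.02 to its mean.

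C8b, which encodes the beta chain that docks C8 onto the growing complex, was the most negative of the 5 genes in its sign-keeping part. Its values were -0.45 and -0.62 with CLA in Cy5 and -0.70 and -0.43 with CLA in Cy3. The orientations overlapped, at means of -0.54 and -0.56. The sign-keeping part was -0.55 ± 0.13 (SD, n = 4), a 1.46-fold difference, and the sign-changing part 0.01. Of all genes, 1.72% had a lower sign-keeping part than C8b and 3.15% a lower one than C6.

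C8g encodes the lipocalin chain of C8. Arrays 1 and 2 gave -0.27 and -0.73, against 0.74 and 1.02 for arrays 3 and 4. The orientations did not overlap, which follows from the signs by which the gene was picked, and their means differed by -1.38. Its sign-changing part was -0.69 ± 0.31 (SD, n = 4 values with arrays 3 and 4 turned), a 1.61-fold difference, and its sign-keeping part 0.19 ± 0.82 (SD, n = 4 values as deposited). The latter SD also holds the difference between the orientations. Arrays 1 and 2 were 0.457 apart for this gene and arrays 3 and 4 were 0.281 apart, against medians of 0.215 and 0.213 over all genes.

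C9, which polymerises into the wall of the pore, had a sign-changing part of the same size. Its values were -0.85 and -0.82 on arrays 1 and 2, against 0.14 and 0.92 on arrays 3 and 4. The arrays with CLA in Cy5 were 0.024 apart, whereas those with CLA in Cy3 were 0.780 apart, the widest gap within an orientation among the 5 genes. The sign-changing part was -0.68 ± 0.36 (SD, n = 4), a 1.60-fold difference, and the sign-keeping part -0.15 ± 0.85. The latter SD also holds the difference between the orientations. Without array 4 the sign-changing part was -0.49, and without array 3 it was -0.88.

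C8a encodes the alpha chain, which is linked to the gamma chain by a disulfide bond and inserts into the membrane. It was at -0.34 and -0.31 with CLA in Cy5, against 0.11 and -0.09 with CLA in Cy3. The orientations did not overlap, but array 4 kept the negative sign. Its sign-keeping part was -0.16 ± 0.21 and its sign-changing part -0.17 ± 0.20 (SD, n = 4 each). Each SD also holds the other part. Within the orientations, arrays 1 and 2 were 0.030 apart and arrays 3 and 4 were 0.202 apart. The array 4 value of C8a, at -0.09, was the nearest to 0 of all 20 member values, and the smallest of the other members was that of C9 on array 3.

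**Figure D1:**
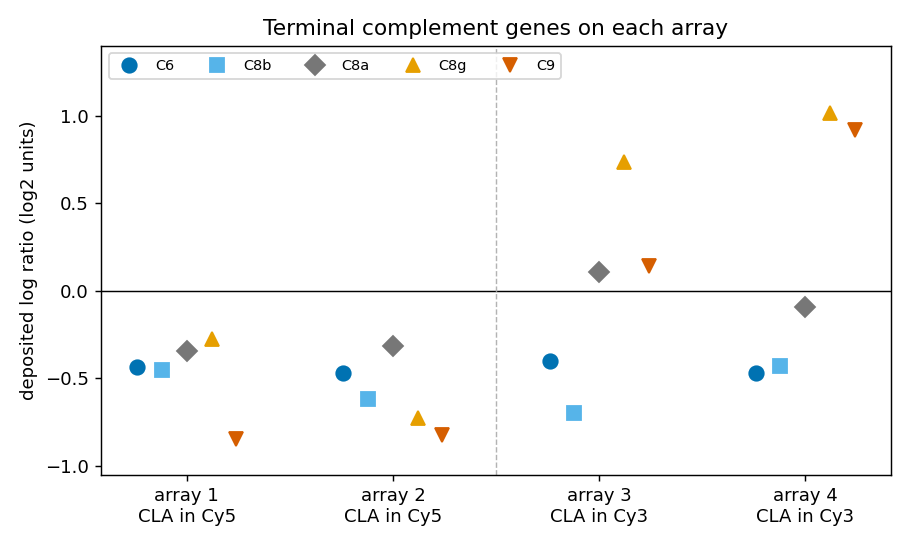
Deposited log ratios of the 5 genes on each array, in log2 units, with CLA in Cy5 left of the dashed line and CLA in Cy3 right of it. Each point is 1 probe on 1 array. C6 and C8b stay between -0.70 and -0.40 on every array, while C8g and C9 lie below 0 on arrays 1 and 2 and above 0 on arrays 3 and 4.

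The 3 chains of C8, which form 1 protein, fell into 3 sign patterns, but the members were picked on these signs. C8a left the mixed pattern when array 3 or array 4 was left out. C8a and C8b lie beside each other on chromosome 4 with no annotated gene between them. Their distance over the 4 values (Euclidean, log2 units) was 0.933, and 9188 genes lay nearer to C8a than C8b did. C8a lay 1.34 from C8g, its disulfide partner. C6 and C8b, on different chromosomes, were the closest pair of members at 0.336, with 38 genes nearer to C6, and C8g and C9 were 0.837 apart. These distances use the values that chose the members and are a description.

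**Figure D2:**
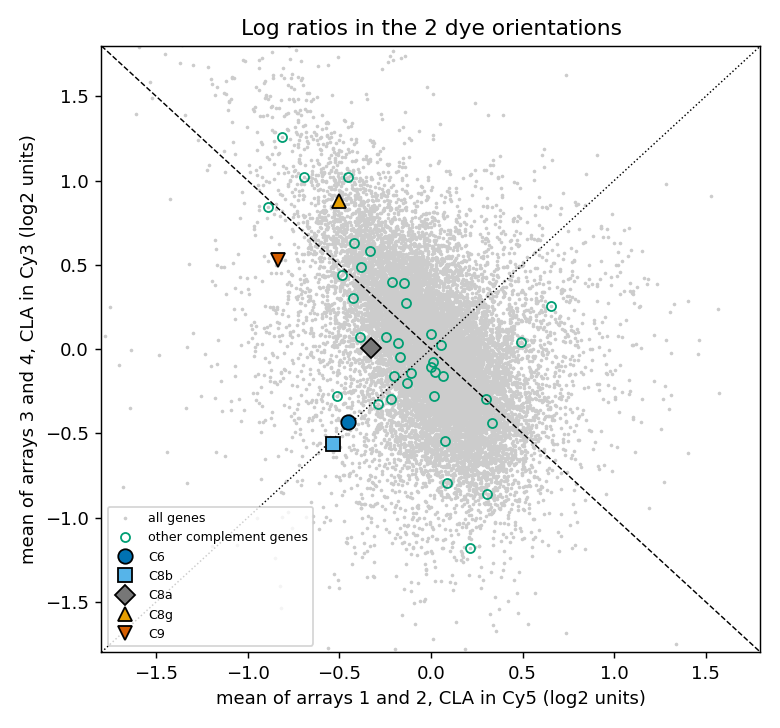
Mean log ratio of arrays 1 and 2 (CLA in Cy5, horizontal axis) against that of arrays 3 and 4 (CLA in Cy3, vertical axis), in log2 units, for all genes (grey), other complement genes (open green circles) and the 5 members. On the dotted line the orientations are equal and on the dashed line they are opposite; C6 and C8b lie on the dotted line, C8g and C9 lie nearer to the dashed one, and 142 of 16504 genes fall outside the axes.

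Under a Cy5 over Cy3 direction, C8g and C9 would be 1.61-fold and 1.60-fold lower with CLA than with LA, C8a would be at -0.17, and C6 and C8b would be at -0.01 and 0.01. With values already turned to CLA over LA, C6 and C8b would be 1.36-fold and 1.46-fold lower with CLA, C8a and C9 would be at -0.16 and -0.15, and C8g at 0.19. The values of C9 and C8g in that reading rest on single arrays. C9 was at -0.35 without array 4 and 0.04 without array 3, and C8g was at 0.07 without array 1 and 0.30 without array 2. Both statements hold only if the ratio on arrays 1 and 2 is CLA over LA. The 2 readings thus name different members, and the labels do not settle which applies. In a limma fit over all genes, 2818 passed at an adjusted p under 0.05 in the sign-changing part and 0 in the sign-keeping part. Which reading applies was not tested.

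The genes nearest to each member in their 4 values, outside the complement lists, were taken by the same distance. For C6 they were Casr, the calcium-sensing receptor, at 0.136 and Rgn, regucalcin, a liver calcium-binding protein, at 0.153. Those of C8b were Lsm11 at 0.154 and Klra22 at 0.166. C8a had Echdc1 at 0.052 and Alkbh7 at 0.107, and C8g had the olfactory receptor gene Olfr620 at 0.133 and the splicing protein gene Xab2 at 0.142. C9 had the most distant neighbours, Cyp4f18, a cytochrome P450, at 0.252 and Rad9a, a DNA damage checkpoint gene, at 0.281. With 4 values per gene and 16504 genes, such neighbours are found for most patterns.

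Complement genes that are not members were tested in limma, with p-values adjusted over all 16504 genes. Of 51 listed genes 37 were measured, and the others, among them C3, were not analysed here. In the sign-changing part 11 of the 37 passed at an adjusted p under 0.05 (29.7%), 8 negative and 3 positive, against 17.1% of all genes. In the sign-keeping part 0 of 37 and 0% of all genes passed (limma, lowest adjusted p = 0.35 over all genes), with 6 of 37 (16.2%) at an unadjusted p under 0.05, close to the 13.5% of all genes. For the sign-changing part, 14 of the 37 stood at an unadjusted p under 0.05 in limma (37.8%), near the share over all genes (38.4%). Leaving out array 1 gave 2 calls in place of 11, with 3.23% of all genes called, and leaving out array 2 gave 4, with 4.13% of all genes called. Leaving out array 3 or array 4 gave 0 calls over all genes (limma, 15 and 14 of the 37 at an unadjusted p under 0.05, or 40.5% and 37.8%, against 28.5% and 24.3% of all genes). The median sign-changing part of the 37 genes was -0.02, against 0.02 over all genes.

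Neither of the other components of the membrane attack complex passed. Hc encodes C5, whose larger fragment starts the complex, and it was at -0.40, -0.37, -0.10 and 0.24 on arrays 1 to 4. Its signs were mixed, like those of C8a, with a sign-changing part of -0.23 ± 0.09 (SE, n = 4, limma adjusted p = 0.15). C7, the next protein to join after C6, ran opposite to C8g and C9, at 0.27 and 0.33 with CLA in Cy5, against -0.32 and -0.27 with CLA in Cy3. Its sign-changing part was 0.30 ± 0.08 (SE, n = 4, limma adjusted p = 0.062), just short of the threshold. C7 and C6 lie near each other on chromosome 15, with 1 protein-coding gene, Mroh2b, between them.

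Of the inhibitors of membrane attack, 3 of 4 were measured and 0 passed, against 17.1% of all genes in the sign-changing part. Vtn, which encodes vitronectin, a plasma protein that keeps the forming complex off membranes, was negative on all 4 arrays at -0.36, -0.22, -0.29 and -0.36. Its sign-keeping part was -0.31 ± 0.08 (SE, n = 4, limma adjusted p = 0.35), and it was the only measured gene among the non-member terminal genes with 1 sign throughout. Clu, for the related fluid-phase inhibitor clusterin, was at -0.11 ± 0.08 in that part (adjusted p = 0.54 in limma). Cd59a, the membrane-bound inhibitor that blocks C9, had a sign-changing part of -0.21 ± 0.09 (SE, limma adjusted p = 0.15).

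Of the classical and lectin pathway genes, 6 of 15 (40%) passed in the sign-changing part, against 17.1% of all genes. Of these 6, 5 were negative and 1 was positive, and the list was not tested as a set. The mannose-binding lectin genes Mbl2 and Mbl1 had the smallest p-values, at -1.04 ± 0.09 and -0.86 ± 0.09 (SE, n = 4, limma adjusted p = 0.013 and 0.019). C4b, for complement C4, was at -0.74 ± 0.10 (adjusted p = 0.027 in limma). C1qa, Fcnb and Colec10, named after their values were seen, were the other 3, and Colec10, a collectin, was positive at 0.59. Mbl2 was at -0.93, -0.70, 1.21 and 1.31 on arrays 1 to 4, a pattern of the same signs as C8g and C9. Masp1, a protease that binds those lectins, did not pass in either part, at 0.31 and -0.24 (adjusted p = 0.068 and 0.36 in limma).

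Cfb, the protease of the alternative pathway convertase, passed with a sign-changing part of -0.46 ± 0.09 (SE, limma adjusted p = 0.038), and Cfp, for properdin, was at -0.31 ± 0.12 without passing (adjusted p = 0.14). Of 9 measured regulators of the convertases and of C1, 3 passed (33.3%, against 17.1% of all genes). Serping1, for the C1 inhibitor, was negative at -0.43, while Cfi, for the protease factor I, and Cr1l, for the membrane regulator Crry, were positive at 0.44 and 0.39 (limma adjusted p = 0.042 to 0.048). Cd46, a membrane cofactor in this class, was negative on all 4 arrays with a sign-keeping part of -0.26 ± 0.10 (limma adjusted p = 0.37). Of 6 receptors of complement fragments 1 passed (16.7%, close to the 17.1% of all genes). It was Itgam, the alpha chain of complement receptor 3, at -0.87 ± 0.10 (adjusted p = 0.023 in limma). Itgax, its relative, was at 0.70 in the sign-changing part and -0.48 in the sign-keeping part and did not pass (adjusted p = 0.057 and 0.36), and the C5a receptor gene C5ar1 was at 0.20 and 0.46 (adjusted p = 0.36 in both).

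**Figure D3:**
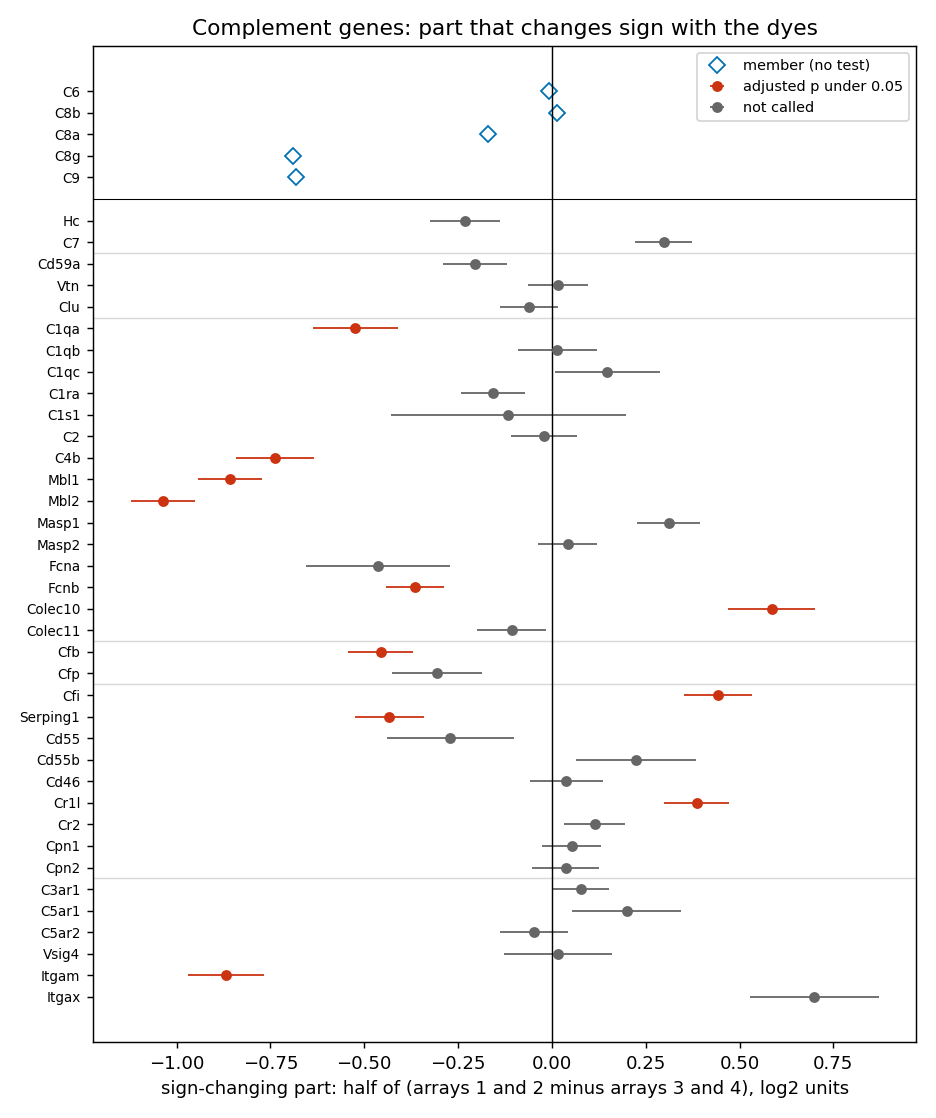
Sign-changing part (mean of arrays 1 and 2 minus mean of arrays 3 and 4, divided by 2, in log2 units) of the 5 members, with no test, and of 37 other complement genes with their standard errors from limma. Red points passed at an adjusted p under 0.05; grey lines part the lists. C8g and C9 lie at -0.69 and -0.68, beside C4b at -0.74, and C6 and C8b lie at -0.01 and 0.01.

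Families that share a fold with the members were set beside them. Of 6 measured MACPF genes outside complement 0 passed in either part, against 17.1% of all genes in the sign-changing part and 0% in the other. Astn2, an astrotactin, had the largest sign-changing part at 0.56 (limma adjusted p = 0.059). In that part Mpeg1, Astn1 and Brinp1 were at 0.19, -0.23 and -0.11. At an unadjusted p under 0.05 stood only Astn2, in the sign-changing part. Of 9 measured lipocalin genes besides C8g 1 passed in the sign-changing part (11.1%, against 17.1% of all genes). It was Apod, for apolipoprotein D, at -0.43 ± 0.08 (SE, adjusted p = 0.035 in limma), and the median of the 9 was -0.41. Ambp, for alpha-1-microglobulin, and Orm2, an orosomucoid, were at -0.41 and -0.80 without passing (adjusted p = 0.053 and 0.055). In the sign-keeping part Mup5 and Apom were at 0.39 and -0.19 (adjusted p = 0.36 and 0.40 in limma). On arrays 1, 2 and 4 Mup5 and the albumin gene Alb had nearly the same values, at 0.526, 0.625 and -0.140 after rounding. Apoa2 was close to both, at 0.527, 0.625 and -0.142, and the reason was not tested.

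Cell type markers moved with the orientations or with single arrays in some lists. Of 6 measured hepatocyte markers 2 (33.3%) passed in the sign-changing part, against 17.1% of all genes. They were Trf and Apob, with negative values, while Ttr, at 0.33 (limma adjusted p = 0.075), and Alb, at 0.09, lay on the positive side. The median of the 6 was -0.26 and 0.01 on arrays 1 and 2, against 0.70 and 0.58 on arrays 3 and 4. Alb and the lipocalin gene Mup5 were both at 0.526, 0.625 and -0.140 on arrays 1, 2 and 4 after rounding. On these arrays Apoa2 was at 0.527, 0.625 and -0.142, and Apoe was at 0.526, 0.625 and -0.103. The reason was not tested, so the Alb ratio may not be a measure of Alb RNA. Of 4 macrophage markers 1 passed (25%, against the same 17.1%). It was Marco, at -0.54, while Adgre1 lay the other way at 0.43 (limma adjusted p = 0.068). The median of the 4 macrophage markers was -0.02, -0.39, -0.11 and 0.80 on arrays 1 to 4. The 4 pancreas acinar markers had a median of 1.97 on array 4, against values between -0.04 and 0.01 on the other arrays. Erythroid markers, 2 measured, had a median of 1.06 on array 2 and -0.71, -0.01 and -0.86 on arrays 1, 3 and 4. None of the lymphocyte, adipocyte, endothelial, stellate, erythroid or acinar markers passed, in lists of 2 to 4 measured genes each. C8g and C9 were highest on array 4, and the part of these markers in the members' values was not tested. Without array 4, C8g had a sign-changing part of -0.62 and C9 of -0.49.

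Values also varied with the feature number, which gives an order of features and was not matched to their place on the array. Across named features the mean of the 4 arrays was related to the feature number (Spearman rho 0.39 over features, which share arrays and are not independent). The members' features were numbers 4498 (C8g), 5797 (C9), 13745 (C8a), 16441 (C6) and 17356 (C8b), so the 2 genes with changing sign lay in the lower numbers and the 2 with 1 sign in the higher ones. Around C6 and C8b the median of the 500 nearest features was 0.22 and 0.23 on array 2, of the opposite sign to these genes, and nearer to 0 on the other arrays. Around C8g it was 0.00, -0.14, -0.17 and -0.17 on arrays 1 to 4. With these local medians subtracted, C6 was at -0.52 and C8b at -0.62 in the sign-keeping part, C8g at -0.74 and C9 at -0.61 in the sign-changing part, and each of the 5 kept its pattern. The sign-keeping part of C8g was then 0.31, against 0.19 as deposited.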

How the data were processed

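The authors deposited processed log ratios, 1 column for each 2-colour array, taken here as log10. The base is an assumption, since the sources used here state no scale, direction or normalization. The medians of the deposited values were 0.0010, -0.0023, -0.0020 and -0.0011 on arrays 1 to 4. Values were multiplied by 3.32 to give log2 units; a deposited base of 2 would make every log2 value smaller by that factor. Scanner intensities were not used, so no dim spot was filtered and signal over background is unknown.

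Genes came from the platform annotation: 18218 features had 1 symbol, 16 several and 4159 none, and only the first were used. Features of 1 accession and then accessions of 1 gene were averaged, giving 16504 genes. RefSeq gene numbers matched 18175 features and kept the members' symbols.

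All genes were fitted in limma 3.58.1 (R 4.3.3) with a sign-keeping and a sign-changing coefficient, 2 residual degrees of freedom and Benjamini-Hochberg adjustment across all genes. The fit was tested on simulated data. The members and gene lists were chosen with earlier results of these data known. Named genes are all terminal pathway genes and, in each other list, the 3 smallest p in the sign-changing part and the 2 smallest in the sign-keeping part, plus the 2 nearest genes of each member. Alternatives were centring, scaling, 1 coefficient alone, robust moderation, probes, medians over probes, a threshold of 0.1 and leaving out each array; subtraction of local medians was chosen after seeing the data. Plots used Python 3.11.15 and matplotlib 3.10.9.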

Additional observations from a re-analysis of the deposited data

Results flagged for a closer look

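C8g and C9 moved one way on every array with CLA in Cy5 and the other way on every array with CLA in Cy3, with sign-changing parts of -0.69 and -0.68 log2 units. The difference between the orientations was not tested for these genes, because they were chosen for it.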

How the results depend on the processing

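Over the alternatives run, the sign-keeping part ran from -0.52 to -0.43 for C6 and from -0.62 to -0.48 for C8b, and the sign-changing part from -0.80 to -0.57 for C8g and from -0.88 to -0.49 for C9. The other parts were less stable: the sign-keeping part ran from 0.07 to 0.31 for C8g and from -0.35 to 0.04 for C9, with 0.07 and -0.29 when arrays were scaled to one spread, and the sign-changing parts of C6 and C8b, near 0, took both signs. Leaving out array 3 put C8a among the genes with 1 sign (3 in place of 2), and leaving out array 4 put it among those that change sign (3 in place of 2). The count of 11 complement genes passing in the sign-changing part was 7 with arrays scaled to one spread, with 12.0% of all genes called. It was 3 with that coefficient alone, with 7.29% of all genes called (the cause was not tested). It was also lower when 1 array was left out, in fits with fewer residual degrees of freedom and 1 array in an orientation. With local medians subtracted 13 passed, 10 of them among the 11, with 19.8% of all genes called. The sign-keeping count was 0 in every alternative run (limma, 6 of 37 at an unadjusted p under 0.05 with all arrays, 16.2% against 13.5% of all genes). No paired analysis was possible because array numbers are not shared between the orientations. With 4 arrays and pooled RNA, the number of arrays limits the precision, and the spread between animals is not measured.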
